A study of Mus musculus with 16 samples.

Results

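Apolipoproteins are the protein components of plasma lipoprotein particles, and 10 of their genes are described here in mouse livers with and without LRH-1 in hepatocytes. The members were chosen by name, with earlier results of these data known: Apom, Apof, Apon, Apoa1, Apoa4, Apoa5, Apob, Apoc3, Apoe and Apoh. All 10 had a probe set annotated to a single gene, out of 19237 genes measured that way, and where a gene had several such probe sets the brightest on average was used. No member was lost to a filter, because no filter on dim probe sets was applied.

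RNA was measured in 16 livers, 1 Affymetrix whole-transcript array for each. Of these, 8 were LRH-1 hep-/- livers (knockout) and 8 were LRH-1 hep +/+ livers (control). All mice were 17 to 19 weeks old, ate freely and were killed at 7 am. LRH-1 is the nuclear receptor liver receptor homologue 1, encoded by Nr5a2. The labels name neither the driver of the deletion nor the deleted exons, and give no sex. The comparison asks which apolipoprotein transcripts depend on LRH-1.

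Hepatocytes make most plasma apolipoproteins. Apob and Apoa1 are the scaffolds of the very-low-density and high-density particles, smaller apolipoproteins such as Apoc3, Apoa5 and Apoe steer their lipolysis and uptake, and Apom carries the signalling lipid sphingosine-1-phosphate on high-density lipoprotein. LRH-1 binds DNA as a monomer, at a nuclear receptor half-site extended at its 5′ end, and is known in liver for its control of bile acid and reverse cholesterol transport genes.

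Levels are given as log2 intensity of the deposited values, and every change is knockout minus control. Nr5a2 itself was 7.78 ± 0.37 in knockout livers and 8.66 ± 0.13 in control livers (SD, n = 8 each), and the genotypes did not overlap (exact permutation p = 0.000155, 2-sided, the smallest that 12870 assignments allow). Of 6 hepatocyte markers listed 4 were measured, and 0 of the 4 passed the test in limma. The mean of the 4 lay between 12.52 and 12.59 in knockout livers and between 12.55 and 12.69 in control livers. These means lie near the bright end of the arrays, where saturation was not tested. In 3 arrays, knockout 1, control 5 and control 8, the mean of 6 adipocyte markers was 5.86 to 6.80, against 4.55 to 4.98 in the other arrays. In limma, 1673 of 19237 genes differed at a Benjamini-Hochberg adjusted p under 0.05, 616 of them lower in knockout. Whole liver was measured, so fewer cells of a type and less RNA per cell cannot be told apart.

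The promoter windows of 3 members are printed here because they hold the letters marked below. Whether these letters have a part in any change was not tested. Apon and Apom had the largest decreases, and Apoa4, which did not pass the test, holds the same letters as Apon on the other strand. Each window runs from 250 bases before to 50 bases after the start of the gene in RefSeq, on GRCm38.p6, and reads 5′ to 3′ along the gene. Capitals mark the match to CAAGGTC in Apon and Apoa4 (GACCTTG, the reverse strand, in Apoa4) and to CAAGGGTC in Apom.
Apon, chr10:128253881-128254180, plus strand: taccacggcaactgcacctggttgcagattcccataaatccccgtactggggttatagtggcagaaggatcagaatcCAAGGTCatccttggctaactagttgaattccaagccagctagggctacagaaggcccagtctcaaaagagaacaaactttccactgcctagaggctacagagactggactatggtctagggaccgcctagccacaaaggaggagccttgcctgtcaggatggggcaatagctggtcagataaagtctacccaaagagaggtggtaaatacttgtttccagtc
Apom, chr17:35131752-35132051, minus strand: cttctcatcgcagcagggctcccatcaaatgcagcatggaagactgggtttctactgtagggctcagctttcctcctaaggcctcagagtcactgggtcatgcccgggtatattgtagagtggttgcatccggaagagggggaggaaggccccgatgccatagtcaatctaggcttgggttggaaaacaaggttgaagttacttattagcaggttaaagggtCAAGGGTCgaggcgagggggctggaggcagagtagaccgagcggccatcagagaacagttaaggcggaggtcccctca
Apoa4, chr9:46240594-46240893, plus strand: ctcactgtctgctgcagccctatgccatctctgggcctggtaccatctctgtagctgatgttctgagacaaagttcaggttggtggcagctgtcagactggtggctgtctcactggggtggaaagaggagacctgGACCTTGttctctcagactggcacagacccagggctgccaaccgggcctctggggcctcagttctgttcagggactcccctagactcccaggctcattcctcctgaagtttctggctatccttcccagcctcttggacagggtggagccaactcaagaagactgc

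Windows were on hand for 8 of the 10 members, 11 windows in all, and the promoters of Apof and Apoc3 were not analysed here. The extended half-site CAAGGNCA, searched on both strands, was in 1 of them, that of Apon, and in 6.71% of all 32851 windows. In Apon it begins 173 bases before the start, at chr10:128253958-128253965, and its letters are CAAGGTCA. The shorter CAAGGTC, which overlaps that match, was in the windows of Apon and Apoa4 and in 3.96% of all windows, and in Apoa4 it lies at chr9:46240729-46240735. The window of Apom holds neither. It holds CAAGGGTC 28 bases before the start, at chr17:35131822-35131829, letters that were chosen after the window was read and that occur in 0.907% of all windows. These matches are descriptions of the letters and say nothing about binding.

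Of the 10 apolipoprotein transcripts, 3 fell in knockout livers and 7 did not pass the test. Apon fell most, to 9.57% of the control level, Apom fell to 28.3% and Apof to 70.4%. Over all genes, 8.7% were called, 3.2% lower and 5.49% higher, and 0 of the 10 members were called higher. The genotypes did not overlap in 2.89% of all genes, 1.2% with knockout lower, and in 3 of the 10 members. The median change was -0.02 over the 10 members and 0.002 over all genes. Because the members were chosen with earlier results known, these shares are descriptions and not a test of the members against all genes.

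**Figure D1:**
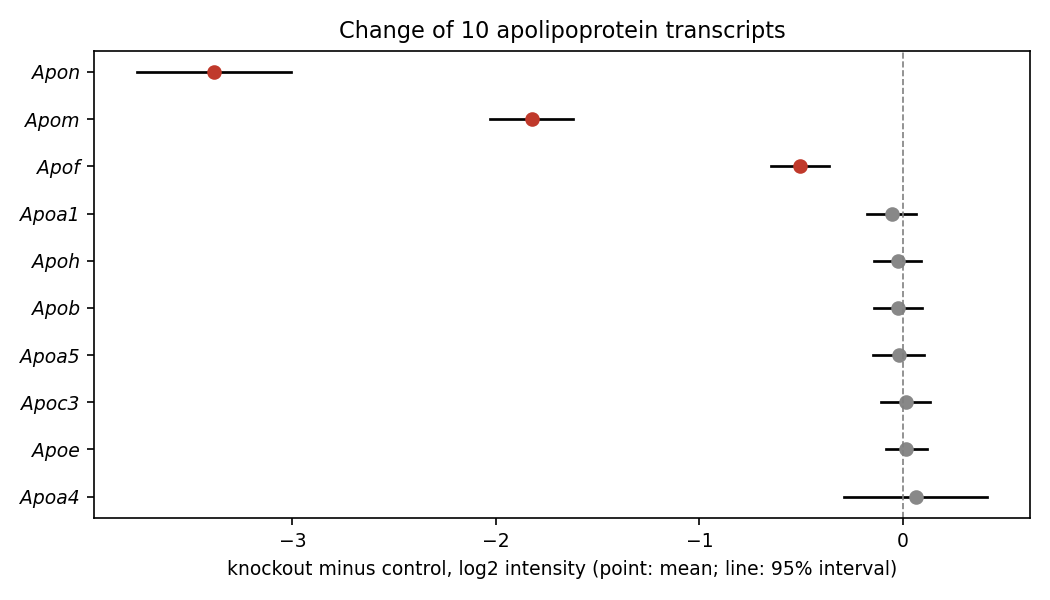
Change of each apolipoprotein transcript, knockout minus control, on a log2 intensity axis; points are differences of means over 8 livers per genotype, lines are 95% intervals, and red points passed at an adjusted p under 0.05. Apon (-3.39), Apom (-1.82) and Apof (-0.51) stand to the left of 0, and the intervals of the other 7 include 0.

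Among the members that ride on high-density lipoprotein as minor components, Apom (probe set 10450444) is the sphingosine-1-phosphate carrier. The gene lies at chr17:35128997-35131801. Its lowest, median and highest log2 intensities were 6.17, 6.45 and 7.12 in knockout livers and 8.17, 8.32 and 8.42 in control livers. Every knockout liver was below every control liver, with 1.05 log2 units between the nearest livers of the 2 genotypes. The means were 6.48 ± 0.28 in knockout and 8.31 ± 0.08 in control (SD, n = 8 each), a change of -1.82 ± 0.10 (SE, limma adjusted p = 6.15e-11). On the linear scale that is 91.1 ± 20.5 in knockout livers against 317 ± 17.6 in control livers.

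The wider spread of Apom in knockout came largely from 1 liver. Knockout 8 stood at 7.12 and the other 7 knockout livers between 6.17 and 6.52. The SD was 0.12 among those 7, against 0.08 in control livers. Without knockout 8 the change was -1.91.

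Apon (probe set 10367215), apolipoprotein N, is encoded at chr10:128254131-128255901. Its lowest, median and highest values were 5.82, 6.64 and 7.39 in knockout livers and 9.52, 10.13 and 10.47 in control livers. The nearest livers of the 2 genotypes were 2.13 log2 units apart. The means were 6.69 ± 0.51 in knockout and 10.08 ± 0.31 in control (SD, n = 8 each), or 10.5-fold lower in knockout (-3.39 ± 0.18 SE, limma adjusted p = 6.15e-11). Knockout 3 (7.39) and knockout 8 (7.32) were the highest of the knockouts and knockout 2 the lowest. In linear intensity Apon averaged 109 ± 37.6 in knockout livers and 1102 ± 225 in control livers.

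Apof (probe set 10367221), known in human plasma as the lipid transfer inhibitor protein, fell least of the 3. The gene lies at chr10:128268699-128271250. Its values were 10.22, 10.37 and 10.73 in knockout livers and 10.80, 10.91 and 11.00 in control livers (lowest, median and highest). The groups did not overlap, but knockout 3, the highest knockout, came within 0.07 of the lowest control. The means were 10.39 ± 0.16 in knockout and 10.90 ± 0.08 in control (SD, n = 8 each), a change of -0.51 ± 0.07 (SE, limma adjusted p = 3e-05). Without knockout 3 the change was -0.56.

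**Figure D2:**
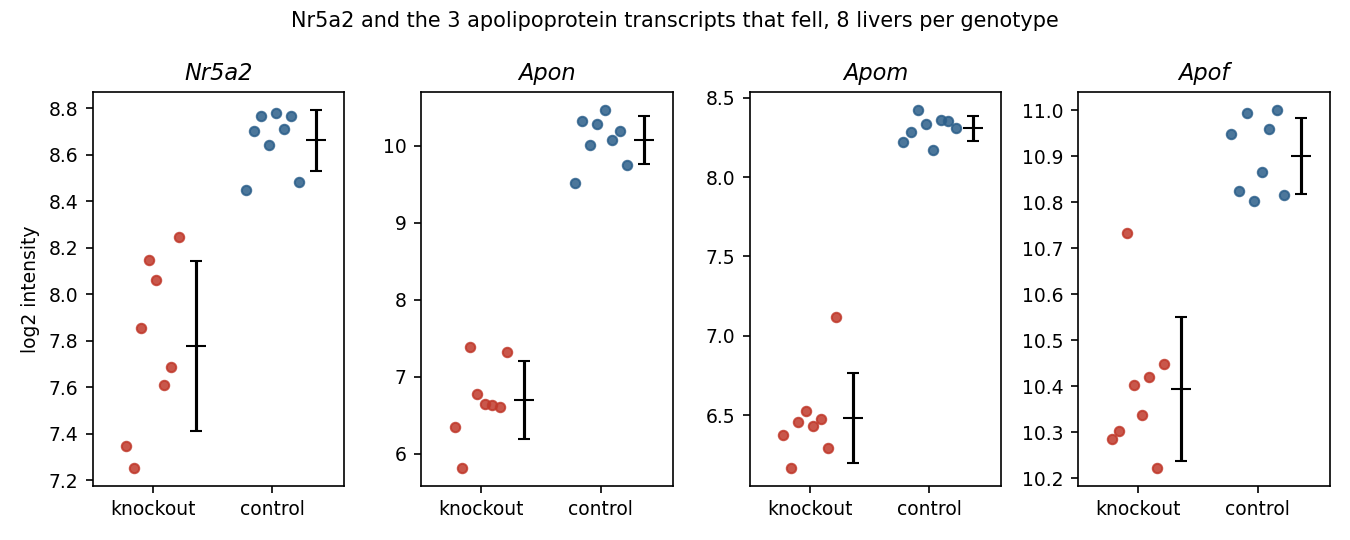
Log2 intensity of Nr5a2, Apon, Apom and Apof in each liver, knockout at the left and control at the right of each panel; points are single livers in replicate order, and the bar beside them is the mean ± SD (n = 8 each). The genotypes do not overlap in any panel, and knockout 8 stands apart from the other knockouts in Apom (7.12) and knockout 3 in Apof (10.73).

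Apoa1, Apoc3, Apoa4 and Apoa5 lie side by side within 43292 bases of chromosome 9, from chr9:46228630 to chr9:46271921, and none of the 4 passed the test. Apoa1, the scaffold of high-density lipoprotein and activator of its cholesterol esterification, had lowest, median and highest values of 12.51, 12.63 and 12.79 in knockout livers and 12.53, 12.70 and 12.82 in control livers. The ranges overlapped almost fully. Its change was -0.06 (95% interval -0.18 to 0.07, limma adjusted p = 0.769), so levels from 88.4% to 105% of control lie within the interval.

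Apoc3, an inhibitor of lipoprotein lipase and of remnant uptake, was at 12.39, 12.55 and 12.59 in knockout livers and 12.30, 12.55 and 12.60 in control livers. The knockout range lay inside the control range. The change was 0.01 (95% interval -0.11 to 0.14, limma adjusted p = 0.975).

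Apoa5, which in mice and humans promotes lipolysis of triglyceride-rich particles, was at 10.33, 10.52 and 10.64 in knockout livers and 10.40, 10.50 and 10.69 in control livers. Of the knockout livers 1 was below all controls. The change was -0.02 (95% interval -0.15 to 0.11, limma adjusted p = 0.959).

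Apoa4, made in mouse liver and intestine and linked to triglyceride secretion, was the most variable of the members that did not pass. Its values were 10.09, 10.40 and 11.51 in knockout livers and 10.01, 10.53 and 10.87 in control livers. Knockout 3 was the highest liver of all, and without it the SD among knockouts was 0.24 rather than 0.45. The change was 0.06 ± 0.17 (SE, 95% interval -0.29 to 0.41, limma adjusted p = 0.949), and -0.08 without knockout 3. The interval therefore spans 81.9% to 133% of the control level, wider than for any other member that did not pass. A second, dimmer Apoa4 probe set (10593174) averaged 6.45 ± 0.36 in knockout and 6.50 ± 0.38 in control livers (SD, n = 8 each), a change of -0.06 that did not pass either (limma adjusted p = 0.957 over all probe sets).

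Apob is the non-exchangeable scaffold of very-low-density lipoprotein. It was at 11.99, 12.13 and 12.28 in knockout livers and 12.02, 12.15 and 12.25 in control livers, a change of -0.02 (95% interval -0.14 to 0.09, limma adjusted p = 0.932). The array reads RNA abundance, so editing of the Apob message was not measured. Apoe, the ligand for receptor uptake of remnants, was at 12.88, 13.02 and 13.06 in knockout livers and 12.92, 13.00 and 13.05 in control livers. Its change was 0.02 (95% interval -0.08 to 0.12, limma adjusted p = 0.952), with the smallest spread of the 10 (SD 0.06 in knockout and 0.05 in control). Apoh, beta-2-glycoprotein I, which binds anionic phospholipid, was at 11.80, 12.00 and 12.05 in knockout livers and 11.88, 12.01 and 12.08 in control livers. Its change was -0.03 (95% interval -0.14 to 0.09, limma adjusted p = 0.93). For the 6 members other than Apoa4 that did not pass, the intervals together ran from 88.4% to 110% of the control level. A p that misses the threshold does not show equality, and these intervals give the sizes of change in intensity that remain possible. They bound the amount of transcript only where intensity follows it, which was not tested at the bright end of the arrays.

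**Figure D3:**
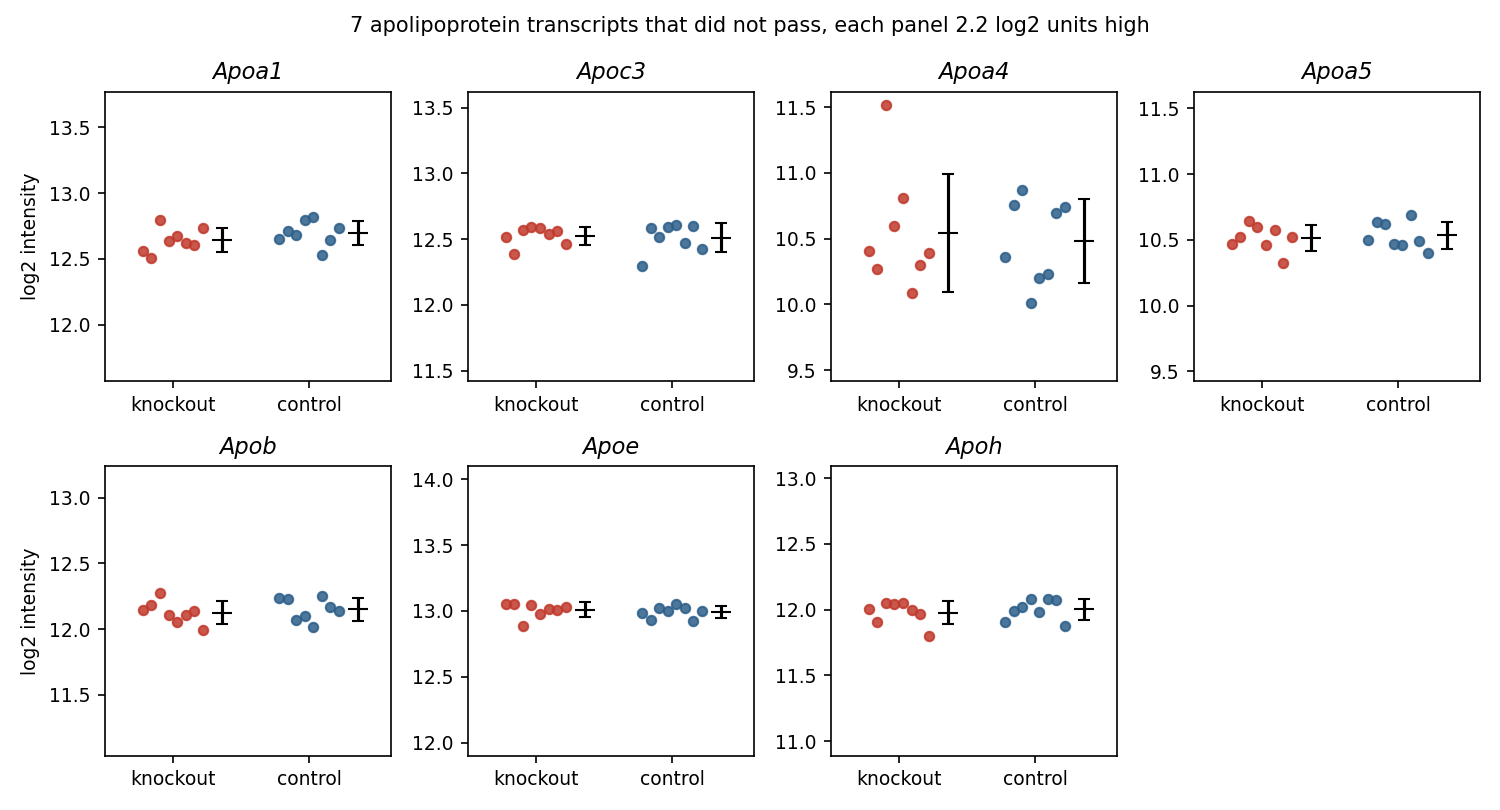
Log2 intensity of the 7 apolipoprotein transcripts that did not pass, each in 8 knockout livers (left) and 8 control livers (right), with the mean ± SD beside the points; all panels span the same number of log2 units. The genotypes overlap in every panel, and Apoa4 spreads most, from 10.09 to 11.51 in knockout and from 10.01 to 10.87 in control livers.

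Several of the members that did not pass were read near the bright end of the arrays. The Apoe probe set was between the 8th and the 16th brightest of 35556 on every array, 0.30 to 0.69 log2 units below the brightest. Apoa1 stood 0.60 to 1.03 below it and Apoc3 0.87 to 1.15. Of the 64 genes with a mean log2 intensity of 11.99 or more, a set that holds 5 of the members, 10 were called (15.6%, against 8.7% of all genes), 7 lower and 3 higher. Their changes ran from -0.66 (Mup3, a major urinary protein) to 0.28 (Cyp2f2, a periportal cytochrome P450). Their median size of change, in either direction, was 0.065, against 0.071 over all genes. Apoa4 and Apoa5 were read 2.06 or more log2 units below the brightest probe set. Saturation of the brightest probe sets was not tested, and the share of bright genes called does not measure it.

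Chromosomal neighbours of the members were called about as often as all genes. Of 36 measured neighbours that are not members, the 3 nearest on each side, 3 were called (8.33%, against 8.7% of all genes), and their median change was 0.03. The 3 measured neighbours of Apom on each side changed by -0.08 to 0.16. None passed in limma, with adjusted p-values of 0.203 or more, beside 8.7% called over all genes.

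Apon and Apof are adjacent on chromosome 10, 12797 bases apart, and both fell, by different amounts. The within-liver difference, Apon minus Apof, was -3.70 ± 0.41 in knockout livers and -0.82 ± 0.34 in control livers (SD, n = 8 each). This difference shifted by -2.88 (exact permutation p = 0.000155, 2-sided, adjusted p = 0.000622 over the 4 pairs compared). That p is the smallest that 12870 assignments allow. Because the genotypes stood 2.13 log2 units apart in Apon alone, it largely restates the fall of Apon. Next to Apof, Stat2, a signal transducer of interferon, changed by -0.35 ± 0.08 (SE, limma adjusted p = 0.00505), with means of 8.00 ± 0.20 in knockout and 8.35 ± 0.10 in control livers (SD, n = 8 each). Apof and Stat2 share 753 bases of the RefSeq gene spans, so their probe sets may read in part the same sequence, which was not tested. On the other side of Apon, Timeless changed by 0.04 (limma adjusted p = 0.921).

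In the chromosome 9 cluster no shift in the within-liver differences of Apoa4 against its neighbours passed the test. Apoa4 minus Apoa1 was -2.09 ± 0.39 in knockout and -2.21 ± 0.35 in control livers (SD, n = 8 each; exact permutation p = 0.541). The shift for Apoa4 minus Apoa5 was 0.08 (exact permutation p = 0.671) and for Apoa4 minus Apoc3 it was 0.05 (exact permutation p = 0.814), each with an adjusted p of 0.814 over the 4 pairs. Of the other neighbours called, Nectin2, a cell adhesion gene near Apoe, rose by 0.26 ± 0.07 (SE, limma adjusted p = 0.0231), a call that ended without control 6 (adjusted p = 0.0557). Prkca, a protein kinase C gene next to Apoh, rose by 0.58 ± 0.10 (SE, limma adjusted p = 0.000554).

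**Figure D4:**
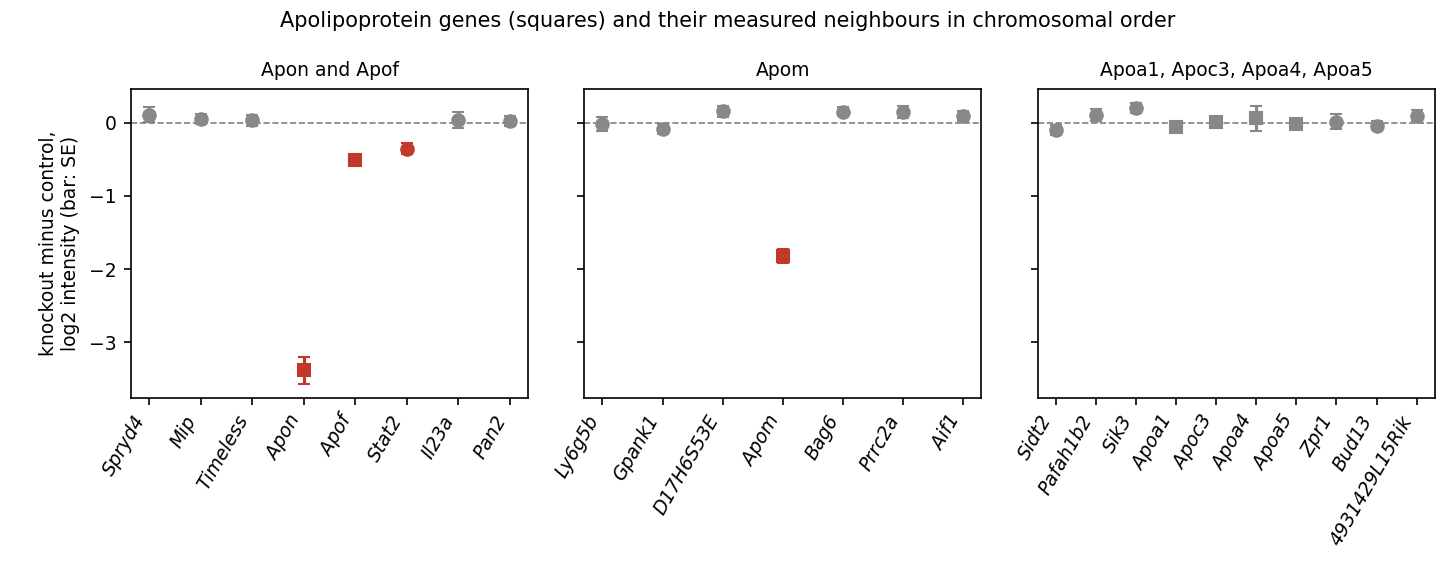
Change of apolipoprotein genes (squares) and of their 3 nearest measured neighbours on each side (circles) in chromosomal order, knockout minus control in log2 intensity, with SE bars; red symbols passed at an adjusted p under 0.05. Apon, Apof and Stat2 passed in the first panel, Apom alone in the second and no gene in the third.

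The 3 members that fell were also set against the level of Nr5a2 from liver to liver. This relation was examined after the values were seen, within each genotype, 6 relations in all. Between Apom and Nr5a2 in knockout livers Pearson's r was 0.73 (exact permutation p = 0.00744, adjusted p = 0.0446, n = 8). Spearman's rho was 0.79 (exact permutation p = 0.0279, adjusted p = 0.0838). Without knockout 2 and knockout 8, the livers farthest from the median of Nr5a2, r was 0.545 over 6 livers. For Apon in knockout livers r was 0.77 (exact permutation p = 0.0257, adjusted p = 0.0688, n = 8) and rho 0.83 (exact permutation p = 0.0154, adjusted p = 0.0838), with r = 0.457 without those 2 livers. Apof did not follow Nr5a2 there beyond the spread (r = 0.36, exact permutation p = 0.405, rho = 0.52, exact permutation p = 0.197, n = 8).

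In control livers Apon gave r = 0.82 (exact permutation p = 0.0344, adjusted p = 0.0688, n = 8) and rho = 0.57 (exact permutation p = 0.151). That relation rests on control 1 and control 8, since r was -0.04 without them. Apom (r = 0.27, exact permutation p = 0.507, rho = 0.24) and Apof (r = 0.30, exact permutation p = 0.434, rho = 0.50) in control livers did not pass either. The relations in knockout livers also lean on the 2 livers at the ends of the Nr5a2 range. How many other genes relate to Nr5a2 as closely was not examined.

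**Figure D5:**
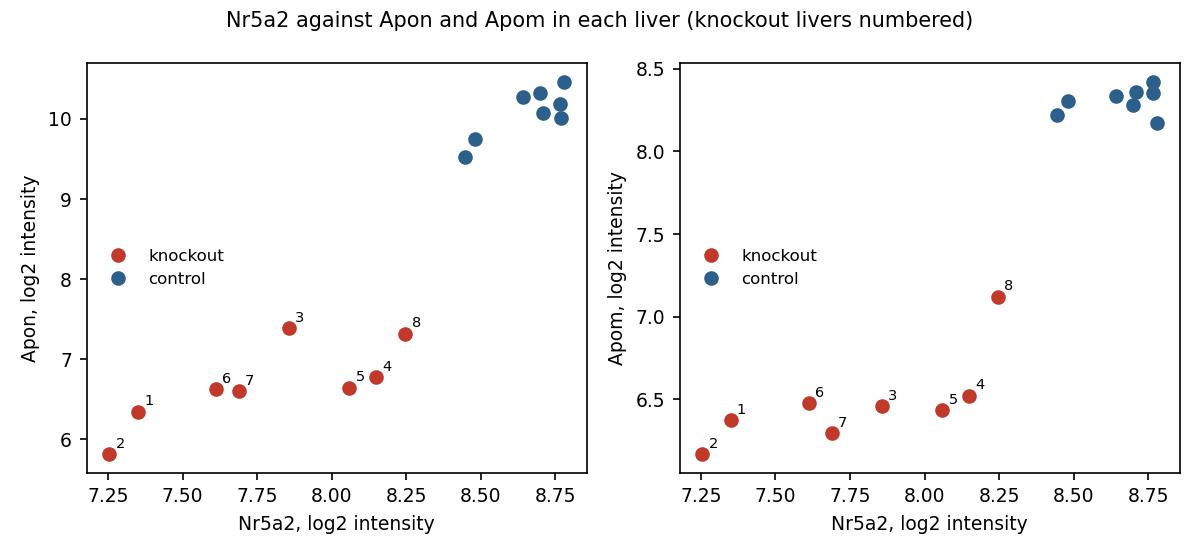
Log2 intensity of Apon (left) and Apom (right) against that of Nr5a2 in each liver, with knockout livers in red and numbered and control livers in blue. Knockout 2 is lowest and knockout 8 highest in Nr5a2 among the knockouts, and all knockouts lie below all controls on both axes.

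After each genotype's mean was taken away, the members did not vary as 1 block. Over the 16 livers the deviations of Apon and Apoa1 had the highest r of the 45 pairs (0.73), those of Apon and Apom had r = 0.58, and those of Apoa4 and Apoe had the lowest (-0.71). Knockout 3 held both the highest Apoa4 (11.51) and the lowest Apoe (12.88) of the knockouts, and r without it was not examined for this pair. The genes whose deviations were most like those of Apon were Hrg (r = 0.92), a histidine-rich plasma glycoprotein, Ilk (0.90), integrin-linked kinase, and Copz1 (0.90), a subunit of the COPI vesicle coat. For Apom they were Phb2 (0.92), a prohibitin, Mavs (0.92), an adaptor of antiviral signalling, and 2310057J18Rik (0.91), and without knockout 8 these values were 0.684, 0.748 and 0.637. Unlike Apom, 2310057J18Rik rose in knockout, by 2.875 (limma adjusted p = 0.000163). Its control mean of 2.72 lies below the median of every array. For Apof they were Fkbp5 (0.84), an immunophilin induced by glucocorticoids, 1810055G02Rik (0.83) and Serpina10 (0.82), a protease inhibitor of coagulation, and without knockout 3 they were 0.581, 0.611 and 0.575. These r are descriptions over the 16 livers of both genotypes, with 1 array each, and the highest of 19237 values are high by selection.

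Among other apolipoprotein genes 1 of 12 measured fell and 0 rose, with a median change of 0.001, against 3.2% lower and 5.49% higher over all genes. The share called is near that of all genes (8.7%). The gene was Apol7a, a member of the apolipoprotein L family, at 6.89 ± 0.36 in knockout and 8.20 ± 0.26 in control livers (SD, n = 8 each), a change of -1.30 ± 0.14 (SE, limma adjusted p = 1.55e-06). The high-density lipoprotein component Apoa2 changed by -0.12 (limma adjusted p = 0.218) and Apoc1 and Apoc2, neighbours of Apoe, by -0.18 (adjusted p = 0.143) and 0.16 (adjusted p = 0.565), and none of these passed. Clu, which encodes clusterin or apolipoprotein J, changed by 0.13 (limma adjusted p = 0.157).

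The counts for the lists that follow stand against 3.2% of all genes lower and 5.49% higher, and the lists were chosen with earlier results known. In lipoprotein assembly and secretion 1 of 13 measured genes fell and 1 rose, with a median of 0.06. They were Dgat2, the last enzyme of triglyceride synthesis (-0.34 ± 0.07 SE, limma adjusted p = 0.00207), and Sort1, a sorting receptor for Apob particles (0.67 ± 0.15 SE, limma adjusted p = 0.00494). In remodelling 2 of 11 fell and 2 rose (8.7% of all genes were called), with a median of 0.22. Gpld1, a phospholipase carried on high-density lipoprotein, changed by -0.41 ± 0.06 (SE, limma adjusted p = 0.000186) and Angptl8, an inhibitor of lipoprotein lipase, by -0.74 ± 0.23 (SE, limma adjusted p = 0.0467). Angptl8 passed narrowly, and its call ended in 17 of 27 alternatives, for example without control 4, the highest control (-0.59, adjusted p = 0.0845). Lmf1, which matures lipases, rose by 0.43 ± 0.07 (SE, limma adjusted p = 0.000254). Lpl, lipoprotein lipase, rose by 1.76 ± 0.34 (SE, limma adjusted p = 0.00147), and by 1.92 without the 3 arrays with adipocyte transcripts. Of 7 stellate cell markers 4 passed in limma, and the median change over the 7 was 0.32. Their list means overlapped between genotypes, at 7.30 to 7.99 in knockout and 7.19 to 7.83 in control livers. The part of stellate cells in the rise of Lpl was not tested.

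Of 10 receptors and transporters 3 fell and 0 rose, against 3.2% lower over all genes, with a median of -0.08. They were Scarb1, which takes up cholesteryl ester from high-density lipoprotein (-1.05 ± 0.08 SE, limma adjusted p = 2.99e-08), Sdc1, a proteoglycan that takes up remnants (-0.62 ± 0.08 SE, limma adjusted p = 1.71e-05), and Lsr, a lipolysis-stimulated lipoprotein receptor (-0.35 ± 0.07 SE, limma adjusted p = 0.00253). In the sphingosine-1-phosphate list, the genes around the lipid that Apom carries, 2 of 11 fell and 0 rose, against 3.2% lower over all genes, with a median of -0.12. S1pr1, a receptor for that lipid, was 8.35 ± 0.26 in knockout and 8.87 ± 0.18 in control livers (SD, n = 8 each), a change of -0.52 ± 0.10 (SE, limma adjusted p = 0.0019). Of 6 endothelial markers, the cells where S1pr1 is best known, 0 passed, with list means of 7.46 to 7.90 in knockout and 7.53 to 7.93 in control livers. The part of these cells in the change of S1pr1 was not tested. Sgpl1, the lyase that degrades that lipid, changed by -0.28 ± 0.06 (SE, limma adjusted p = 0.0061).

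Among regulators of apolipoprotein genes 8 of 18 measured fell and 0 rose, against 3.2% lower over all genes, with a median of -0.21. The 4 with the smallest p were Nr5a2, Nr0b2, which encodes the repressor SHP (-4.02 ± 0.20 SE, limma adjusted p = 1.9e-11, and -3.30 with a pseudocount of 16), Cebpa, a liver-enriched transcription factor (-0.72 ± 0.10 SE, limma adjusted p = 2.49e-05), and Nr1h4, which encodes the bile acid receptor FXR (-0.57 ± 0.08 SE, limma adjusted p = 6.58e-05). Nr5a2, counted among the 8, was itself the deleted gene. The mean log2 intensity of Nr0b2 was 4.51 in knockout livers and 8.54 in control livers. The knockout mean lies below the median of every array (linear intensities of 38.9 to 43.5), so the size of its change depends on how dim values are treated. Over the 6 lists, 17 of 75 measured genes fell and 3 rose, against 3.2% lower and 5.49% higher over all genes.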

How the data were processed

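Liver RNA from 8 knockout and 8 control mice was hybridised to Affymetrix arrays, from 100 ng of total RNA each, per the labels' protocols. The deposited values are linear intensities, 1 per probe set and liver; the submitters' processing notes name Expression Console. How probes were summarised and arrays normalized is not given in the sources. The number of arrays limits the precision.

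Values were taken to log2 with no pseudocount or further normalization. Of 35556 probe sets, 21456 were paired with 1 gene, 2376 with several and 11724 were not listed. The first gave 19237 genes, and for 1343 genes with several probe sets the brightest on average was kept. Genotype was tested 2-sided in limma 3.58.1 under R 4.3.3 (lmFit, then eBayes), with Benjamini-Hochberg adjustment over all genes, and single values with exact permutation tests over livers. The steps were tested on simulated data. Replicate numbers did not pair the livers (correlations of same-numbered livers from -0.27 to 0.28). The alternatives were the replicate block, quantile normalization, median centring, 2 intensity filters, the mean of probe sets, all probe sets, a variance trend, array weights, a pseudocount of 16, leaving out each array and, added after seeing the data, leaving out the 3 arrays with adipocyte transcripts.

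The members and lists were chosen with earlier results of these data known. Named genes are all members, up to 4 called genes per list by smallest p, called neighbours, and the 3 genes most like Apom, Apon and Apof. Other genes with values (Apoa2, Apoc1, Apoc2, Clu, Timeless, Mup3, Cyp2f2) were chosen after their values were seen. Of 96 genes on the lists 75 had their own probe set; the rest were not analysed here. Promoter windows and gene positions are from RefSeq, GRCm38.p6.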

Additional observations from a re-analysis of the deposited data

Results flagged for a closer look

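For the 10 members and 19 other called genes named in the report, each genotype's 8 livers were examined for a liver far from the others, 58 groups in all over 29 genes, of which chance flags about 1 in 20. There were 4 such values, in 3 livers. Apom in knockout 8 was 7.12, with the next knockout at 6.52. Apof in knockout 3 was 10.73, with the next at 10.45. Apoe in knockout 3 was 12.88, the lowest, with the next at 12.98. Angptl8 in control 4 was 10.38, with the next control at 9.44. The gaps were 0.56 to 0.64 of the range of the group. Knockout 3 also held the highest Apoa4, Apon, Apoa1, Apoa5, Apob and Apoh values of the knockouts, but not the highest Apom or Apoc3. The cause of this was not tested.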

How the results depend on the processing

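The 3 calls among the members held in all 27 alternatives. Apon ranged from -3.56 to -3.19, Apom from -1.91 to -1.65 and Apof from -0.56 to -0.48, with adjusted p of 0.000559 or lower. None of the other 7 passed in any (smallest adjusted p 0.582). Values near 0 changed sign: with array weights Apoc3 (-0.00416) and Apoa4 (-0.0142), and after quantile normalization Apoa5 (0.00238), Apob (0.0349) and Apoh (0.0439). Leaving out 1 array gave -0.0172 to 0.0334 for Apoc3, -0.0755 to 0.128 for Apoa4, -0.0389 to 0.00707 for Apoa5, -0.0429 to 0.000153 for Apoh, -0.0370 to 0.156 for Apoa4 minus Apoa5 and -0.0831 to 0.117 for Apoa4 minus Apoc3, none called. The cause of these sign changes was not tested. The count over all genes was 1424 to 1821 without 1 array, 1129 without the 3 arrays with adipocyte transcripts and 2094 with array weights. Over the 6 lists the 20 calls became 15 without those 3 arrays and 29 with array weights. The replicate block gave 1524 calls, with Apof at adjusted p = 0.000317. It left all 3 members called, and Angptl8 lost its call (adjusted p = 0.0807). Of 19 other named genes 17 kept their call in every alternative, the exceptions being Angptl8 and Nectin2. No signal over background or detection call was used here.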
